A study of Oryza sativa with 48 samples.

Results

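Transcript levels in fully grown, non-elongating rice leaves were compared between the genotypes M202(Sub1) and M202 after 1 day under water. The comparison took the 3 M202(Sub1) and the 3 M202 libraries that the labels place in this tissue at this time, which are 6 of the 48 libraries of the series, and it covered every gene of the count table. Both groups had been completely submerged, so neither is an untreated control. The japonica cultivar M202 lacks SUB1A, a gene of submergence tolerance, and M202(Sub1) is its near-isogenic line into which the Sub1 locus was bred. The series sampled both genotypes at 0, 1, 3 and 6 days of submergence, in the fifth leaf, which elongates under water, and in the lower leaves, which do not, with 3 independent biological replicates in each of the 16 groups. Day 0 stands for plants that were not submerged. Pot-grown greenhouse plants at an early leaf stage were used, and leaves were frozen as soon as the plants left the water. Each genotype is 1 line, so a difference between them belongs to this pair of lines, and a line made by backcrossing can carry donor DNA near the selected locus and elsewhere. The transcript of SUB1A itself was not analysed here.

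SUB1A encodes a group VII ethylene response factor, a transcription factor of a family whose members respond to ethylene and, in many plants, to low oxygen. Water slows the escape of ethylene from submerged tissue, ethylene raises SUB1A transcript, and plants with SUB1A are known to hold back elongation, spend carbohydrate more slowly and keep chlorophyll longer than plants without it. When oxygen is short, plant cells make ATP by glycolysis and regenerate NAD+ by ethanol fermentation, in which pyruvate decarboxylase makes acetaldehyde and alcohol dehydrogenase reduces it to ethanol.

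The 3 M202 libraries held 6810835 to 7233223 counts and the 3 M202(Sub1) libraries 4873142 to 5548860, so depth differed with genotype, and the part of this gap in the results was tested only by thinning the libraries to equal depth. Over the 48 libraries, totals ran from 4873142 to 10369501, and 21453 of 37830 genes passed the filter on low counts. Replicates within each of the 2 groups correlated at 0.9691 or more (Pearson's r of log2 CPM across genes, which are not independent replicates). The labelled tissue was checked by marker genes: the summed level of 6 leaf genes of photosynthesis was 1690 to 2030 CPM (the usual unit of counts scaled by library size) in M202(Sub1) and 1980 to 2460 CPM in M202, all 6 being detected. The 4 root markers summed to 2.58 to 3.19 CPM and 2.09 to 5.9 CPM, with LSI2 at 0 in both groups and RCC3 and NRT2.1 at 0 in M202(Sub1). The 3 meristem markers summed to 24.7 to 33.9 CPM and 24.4 to 28.9 CPM, with OSH15 at 0 in both groups and OSH1 at 0 in M202. In such bulk samples, fewer cells of a type and less RNA per cell cannot be told apart.

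Of the 21453 genes tested, 3226 (15%) differed between the genotypes at an adjusted p under 0.05, 1276 (5.95%) being higher and 1950 (9.09%) lower in M202(Sub1). All adjusted p-values are from edgeR's quasi-likelihood test with Benjamini-Hochberg adjustment over all genes tested, and levels are CPM after scaling of library sizes. Each log2 difference is M202(Sub1) minus M202, between 3 libraries a genotype. Its standard error comes from 1 fit of all 48 libraries, whose 16 groups share the estimate of the spread. The lower genes differed by more: their median log2 difference was -1.09, against 0.64 for the higher ones, while the median over all genes was -0.02. Changes of at least 2-fold numbered 368 higher and 1072 lower, and changes of at least 4-fold 148 higher and 453 lower. The 3 M202(Sub1) libraries held no count of 122 of the lower genes, and the 3 M202 libraries none of 26 of the higher ones. The shallower M202(Sub1) libraries each detected 22329 to 22543 genes and the M202 libraries 23739 to 23825. The part of depth in these medians and in the split of absent genes was not tested. At an unadjusted p under 0.05 there were 5723 genes. Leaving out any 1 of the 6 libraries gave 2390 to 2666 calls.

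**Figure D1:**
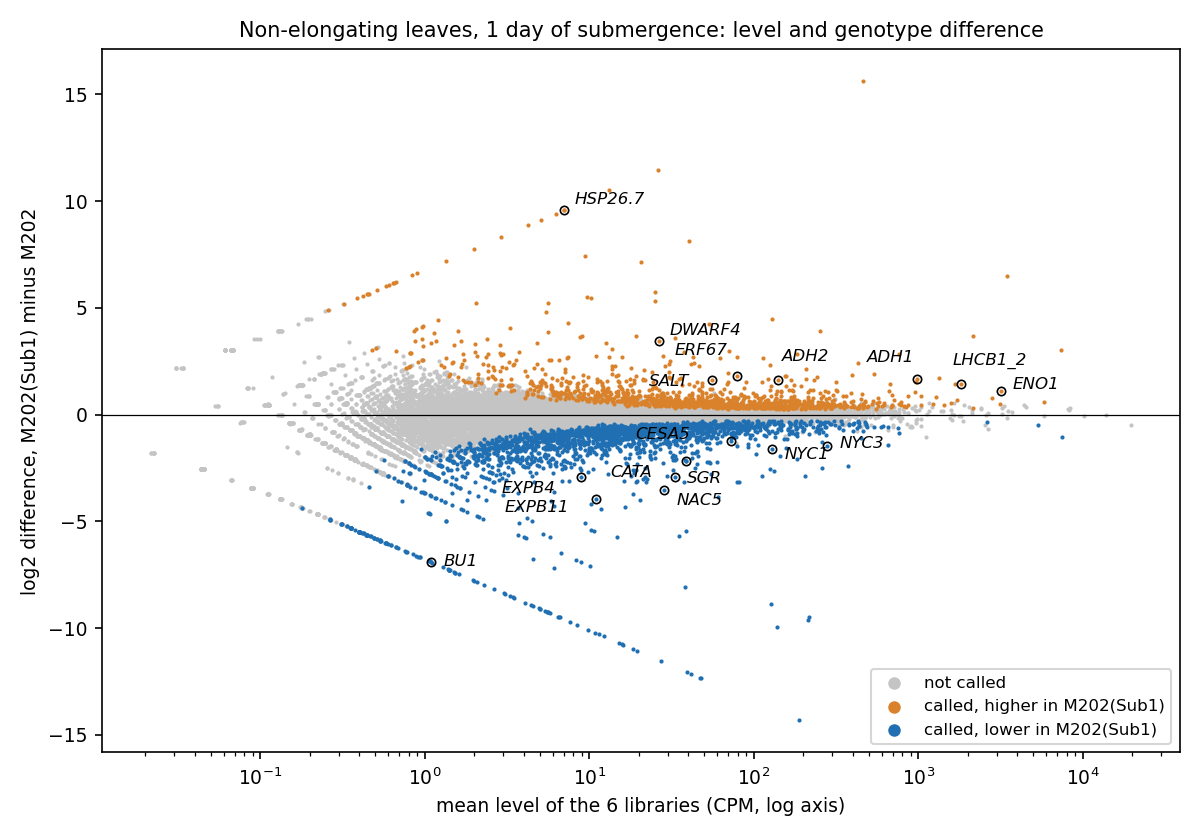
Log2 difference between the genotypes (M202(Sub1) minus M202, vertical axis) against mean level in CPM (horizontal log axis) in non-elongating leaves after 1 day of submergence, 1 point a gene with a count in these libraries, with called genes coloured and some named genes labelled. The called genes below 0 lie farther from it in the median (-1.09) than those above it (0.64).

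The genes were also read by lists of known roles. Over the 302 tested members of all lists, 38 were higher and 46 lower in M202(Sub1), which is 27.8% called against 15% of all genes, and their median log2 difference was -0.05. The lists with the most calls for their size were the clock and flowering genes (6 higher and 1 lower of 8), the cell wall genes (0 higher and 12 lower of 16) and the dehydration genes (4 higher and 2 lower of 11). Few members were called among the abscisic acid genes (1 of 17), the defence genes (1 of 19), the light-harvesting genes (2 of 23), the Calvin cycle genes (1 of 11) and the genes of chlorophyll synthesis (1 of 12). These shares describe the lists and were not tested against other genes.

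**Figure D2:**
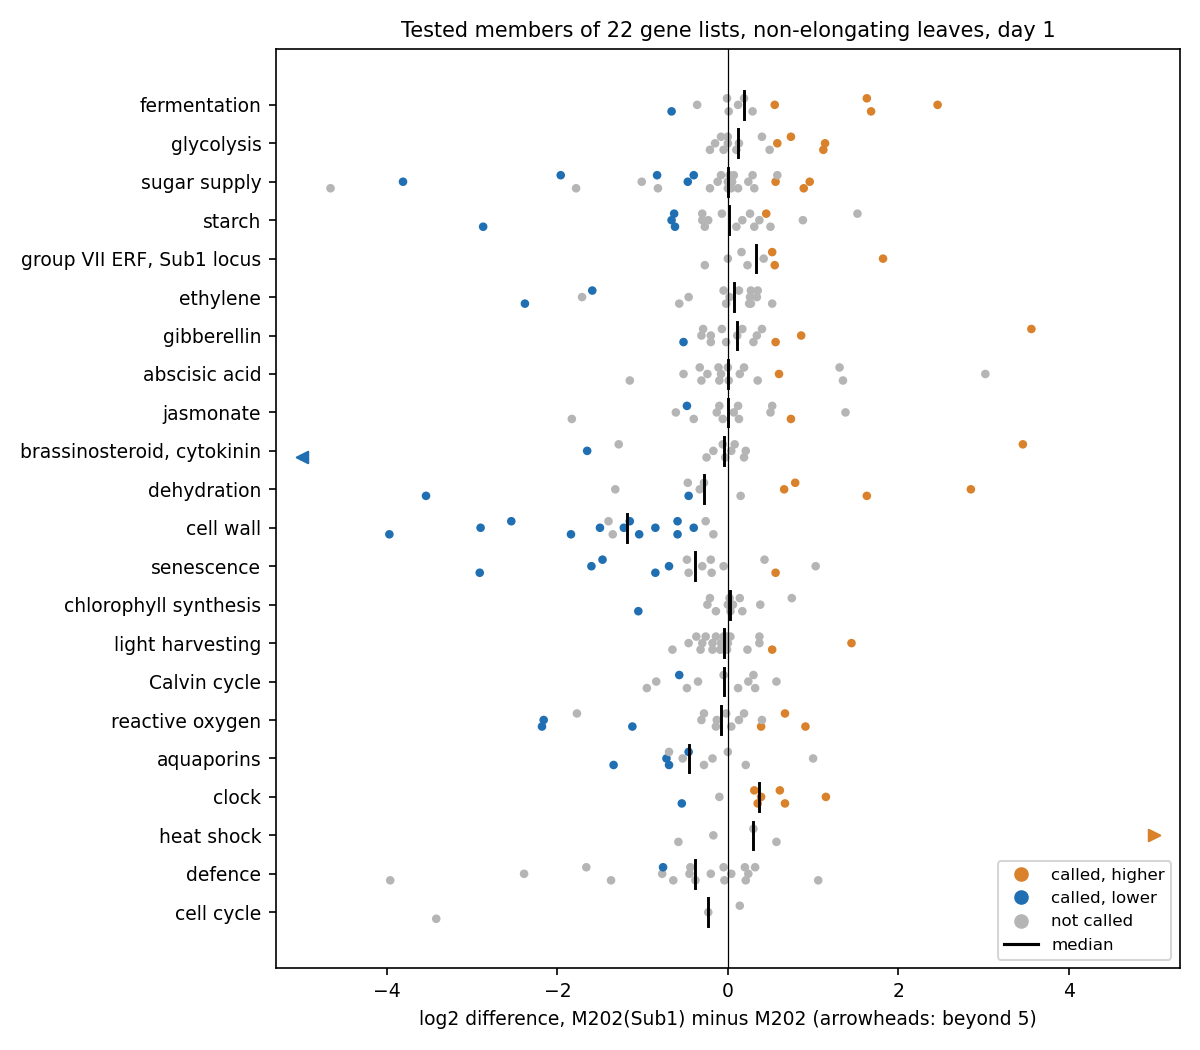
Log2 difference between the genotypes (M202(Sub1) minus M202, horizontal axis) for each tested member of each list in non-elongating leaves after 1 day of submergence, with called members coloured, a bar at each list's median and arrowheads for values beyond the axis. The cell wall members lie below 0, with a median of -1.18, and most clock and flowering members above it, with a median of 0.37.

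Genes of both steps of ethanol fermentation were higher in M202(Sub1). Of 11 genes on the fermentation list, 4 were higher and 1 lower, and the median log2 difference was 0.19. ADH1 (OS11G0210300), the main alcohol dehydrogenase of flooded rice, stood at 1550, 1520 and 1430 CPM in the M202(Sub1) libraries and at 514, 429 and 460 CPM in the M202 libraries. All 3 M202(Sub1) libraries were above all 3 M202 libraries, a 3.2-fold difference (log2 difference 1.68 ± 0.15, adjusted p = 1.39e-12). ADH2 (OS11G0210500), another alcohol dehydrogenase, stood at 218, 201 and 220 CPM in the M202(Sub1) libraries and at 68.3, 75.6 and 62.2 CPM in the M202 libraries, again without overlap (log2 difference 1.63 ± 0.19, adjusted p = 7.11e-09). PDC1 (OS05G0469600), a pyruvate decarboxylase, stood at 87.7, 57.3 and 64.8 CPM in the M202(Sub1) libraries and at 48.1, 44.4 and 50.7 CPM in the M202 libraries, the highest of the M202(Sub1) libraries standing well apart from the other two (log2 difference 0.55 ± 0.19, adjusted p = 0.0401). The PDC1 call was weak. It was lost in 7 of 14 alternatives, and over the 14 the adjusted p ran from 0.00634 to 0.325. The losses were without M202(Sub1) replicate 1 (0.35) or 3 (0.61) and without M202 replicate 1 (0.55), 2 (0.50) or 3 (0.59), these values being log2 differences. The call was also lost with the libraries thinned to equal depth (0.52) and by DESeq2 (0.55). PDC2 (OS03G0293500), a rarer pyruvate decarboxylase, was at 3.39, 1.63 and 2.58 CPM in M202(Sub1) against 0.262, 0.407 and 0.67 CPM in M202 (log2 difference 2.46 ± 0.78, adjusted p = 0.0258). The call was lost without M202(Sub1) replicate 1 (2.19) or 3 (2.45) and without M202 replicate 1 (2.19) or 2 (2.40). It was also lost with no filter on low counts (2.45). The lower member was PPDKB (OS05G0405000), pyruvate phosphate dikinase, which regenerates phosphoenolpyruvate from pyruvate and was measured at 235, 217 and 216 CPM in M202 but at 132, 133 and 158 CPM in M202(Sub1) (log2 difference -0.66 ± 0.11, adjusted p = 1.74e-05).

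Glycolysis showed the same sign wherever a gene was called: 4 of its 14 genes were higher and none lower, the other 10 not passing the test, with a median log2 difference of 0.12. ENO1 (OS10G0167300), an enolase, stood at 4630, 4290 and 4100 CPM in the M202(Sub1) libraries and at 1860, 1680 and 2430 CPM in the M202 libraries, so the lowest M202(Sub1) library was above the highest M202 library (log2 difference 1.12 ± 0.22, adjusted p = 0.000152). HXK5 (OS05G0522500), a hexokinase that also acts as a glucose sensor in rice, stood at 60.8, 65.2 and 65.7 CPM in the M202(Sub1) libraries and at 26.8, 30.4 and 30 CPM in the M202 libraries (log2 difference 1.14 ± 0.16, adjusted p = 6.02e-07). PGIA (OS03G0776000), a phosphoglucose isomerase, stood at 275, 262 and 270 CPM in the M202(Sub1) libraries and at 161, 165 and 157 CPM in the M202 libraries (log2 difference 0.74 ± 0.09, adjusted p = 7.5e-09). A further isomerase gene, PGIB, was higher by a log2 difference of 0.58 ± 0.13 (adjusted p = 0.000951). The libraries of the 2 genotypes did not overlap for any of ENO1, HXK5 and PGIA. Non-overlap, here and for other named genes, describes genes chosen with results of these libraries known, so it adds no support. Its share over all genes was not counted.

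Genes of sugar supply moved in both directions, with 3 higher and 5 lower of 26 and a median log2 difference of 0. SUS1 (OS03G0401300), a sucrose synthase that splits sucrose for respiration, was measured at 10.2, 18.1 and 9.92 CPM in M202 but at 3.59, 3.06 and 3.13 CPM in M202(Sub1), the M202 level being above that of every M202(Sub1) library (log2 difference -1.96 ± 0.32, adjusted p = 1.02e-05). CIPK15 (OS11G0113700), a protein kinase that links oxygen shortage to sugar signalling in rice, was measured at 45.2, 51.2 and 58.8 CPM in M202 but at 35.3, 24.9 and 26.9 CPM in M202(Sub1) (log2 difference -0.83 ± 0.17, adjusted p = 0.000388). TPP1 (OS02G0661100), a trehalose phosphate phosphatase, stood at 117, 106 and 110 CPM in the M202(Sub1) libraries and at 54.3, 58.4 and 59.1 CPM in the M202 libraries (log2 difference 0.96 ± 0.23, adjusted p = 0.00253). SWEET13 (OS12G0476200), a sucrose exporter, stood at 37.9, 35.1 and 38.3 CPM in the M202(Sub1) libraries, and the 3 M202 libraries averaged 20 ± 2.25 CPM (SD) (log2 difference 0.89 ± 0.21, adjusted p = 0.00192). Both SWEET13 (1.12 ± 0.23, adjusted p = 0.00127) and SUS1 (-0.84 ± 0.23, adjusted p = 0.0316) already differed in the same direction on day 0, in log2. The day 0 call of SUS1 was lost without M202(Sub1) replicate 1 (-0.78) or 3 (-0.74) or M202 replicate 1 (-0.76) or 3 (-0.82) of that day. For CIPK15, TPP1 and SWEET13, too, the libraries of the genotypes did not overlap. CIPK15 lay in a window of 50 neighbouring tested genes on chromosome 11 in which 16 differed, 8 of them in the same direction on day 0. SWEET13 lay in one on chromosome 12 in which 18 differed, 7 of them so on day 0. The median over all windows was 7 called genes. The sucrose carrier SUT1 (OS03G0170900) was lower by a smaller step (log2 difference -0.40 ± 0.14, adjusted p = 0.0456). Its call was lost without M202(Sub1) replicate 1 (-0.37) or 2 (-0.35) and without M202 replicate 1 (-0.31) or 2 (-0.41). It was also lost with upper-quartile scaling (-0.39), no filter (-0.41), halved counts (-0.40) and the groups alone (-0.40), so in 8 of 14 alternatives. The other called genes of the list were singled out after their values were seen. CIN2, a cell wall invertase, had 2 counts over the M202(Sub1) libraries and 46 over the M202 libraries, a ratio of M202 to M202(Sub1) of 15.7 with a 95% counting interval of 4.1 to 133. The call (log2 difference -3.81 ± 1.08, adjusted p = 0.0103) was lost without M202(Sub1) replicate 1 (-3.31) or 2 (-3.33) or M202 replicate 2 (-3.32), against -6.82 without M202(Sub1) replicate 3. SUT2, a vacuolar sucrose carrier, was lower (log2 difference -0.47 ± 0.13, adjusted p = 0.0113) except without M202(Sub1) replicate 1 (-0.43). MYBS1, a sugar-responsive regulator of alpha-amylase genes, was higher (log2 difference 0.56 ± 0.20, adjusted p = 0.0479). It was not called without M202(Sub1) replicate 2 (0.54) or 3 (0.46), without M202 replicate 1 (0.52) or 2 (0.48), with a replicate block (0.56) or by DESeq2 (0.55). Over the alternatives its adjusted p ran from 0.00586 to 0.201.

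Of 18 starch genes, 1 was higher and 4 were lower, with a median log2 difference of 0.01. GWD1 (OS06G0498400), a glucan water dikinase, which opens starch granules to breakdown, was higher (log2 difference 0.45 ± 0.10, adjusted p = 0.000752). DPE2 (OS07G0662900), which handles the maltose released from starch, was lower (log2 difference -0.62 ± 0.11, adjusted p = 2.36e-05), and so was GBSS2 (OS07G0412100), a granule-bound starch synthase of leaves (log2 difference -0.63 ± 0.20, adjusted p = 0.0202). The GBSS2 call was lost without M202(Sub1) replicate 1 (-0.61) or 3 (-0.63) or M202 replicate 3 (-0.48). An amylase gene that responds to sugar starvation, AMY3D (OS08G0473900), had 2 counts over the 3 M202(Sub1) libraries and 24 over the 3 M202 libraries, a ratio of M202 to M202(Sub1) of 8.18 with a 95% counting interval of 2.03 to 71.4. AMY3D was called lower (log2 difference -2.87 ± 0.98, adjusted p = 0.0408). It was not called without M202(Sub1) replicate 2 (-2.38) or 3 (-2.30) or without M202 replicate 1 (-2.97), 2 (-2.76) or 3 (-2.87), and without M202(Sub1) replicate 1 its log2 difference was -5.89. By DESeq2 (-3.04) AMY3D was not called either. AMY2A, another amylase gene and the remaining one lower in M202(Sub1), was named after its value was seen (log2 difference -0.66 ± 0.21, adjusted p = 0.0258). The call was lost without M202(Sub1) replicate 1 (-0.52) or 3 (-0.65) or M202 replicate 1 (-0.65) or 2 (-0.60). It was also lost with the libraries thinned to equal depth (-0.59).

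The group VII ethylene response factors other than SUB1A were tested as a list of 8 genes, of which 3 were higher and none lower, with a median log2 difference of 0.33. ERF67 (OS07G0674800), an activator of oxygen-shortage genes that SUB1A is known to switch on, stood at 130, 110 and 132 CPM in the M202(Sub1) libraries and at 41.6, 32.3 and 31.1 CPM in the M202 libraries, with no M202 library above 41.6 CPM (log2 difference 1.82 ± 0.20, adjusted p = 6.22e-10). ERF66 (OS03G0183000), its close partner, stood at 933, 921 and 849 CPM in the M202(Sub1) libraries and at 618, 637 and 626 CPM in the M202 libraries (log2 difference 0.52 ± 0.15, adjusted p = 0.0118). SUB1C (OS09G0287000), which lies at the Sub1 locus of all rice, stood at 577, 702 and 716 CPM in the M202(Sub1) libraries and at 464, 402 and 492 CPM in the M202 libraries (log2 difference 0.55 ± 0.19, adjusted p = 0.0411). The call was lost without M202(Sub1) replicate 2 (0.50) or 3 (0.51) and without M202 replicate 1 (0.57), 2 (0.48) or 3 (0.62). SUB1B (OS09G0286600), the other gene of the locus, stood at 225, 272 and 248 CPM in the M202(Sub1) libraries and at 177, 194 and 184 CPM in the M202 libraries, and these libraries did not overlap although the gene did not pass the test (log2 difference 0.42 ± 0.16, adjusted p = 0.0619). It passed under 5 of 14 alternatives. SUB1B and SUB1C are close relatives of SUB1A, the counting is not known to separate reads that they share, and the 2 genotypes carry different forms of the locus, so their values are uncertain. EBP89 (OS03G0182800), a further member, had a log2 difference of 0.00 ± 0.19 (adjusted p = 0.999).

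Of 16 genes of ethylene synthesis and signalling, none was higher and 2 were lower, with a median log2 difference of 0.07. ACS2 (OS04G0578000), an ACC synthase, which makes the precursor of ethylene, was lower and had 10 counts over the M202(Sub1) libraries and 78 over the M202 libraries (log2 difference -2.38 ± 0.79, adjusted p = 0.0328). Its call was lost without M202(Sub1) replicate 1 (-2.14) or 3 (-2.08) or M202 replicate 2 (-1.99) or 3 (-2.44). ACS5 (OS01G0192900), an ACC synthase linked to elongation under water, had a log2 difference of 0.13 ± 0.29 (adjusted p = 0.837), and the ethylene receptor ETR2 (OS04G0169100) one of 0.35 ± 0.13 (adjusted p = 0.0559).

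DWARF4 (OS03G0227700), a cytochrome P450 of brassinosteroid synthesis, stood at 46.2, 51.2 and 48 CPM in the M202(Sub1) libraries and at 5.24, 3.12 and 4.83 CPM in the M202 libraries. Every M202(Sub1) library was several times above every M202 library (log2 difference 3.46 ± 0.27, adjusted p = 5.16e-14). CPD1 (OS11G0143200), another P450 of that pathway, was lower (log2 difference -1.65 ± 0.47, adjusted p = 0.0118). Its libraries overlapped, and the call was lost without M202(Sub1) replicate 1 (-1.37) or 2 (-1.29) or M202 replicate 2 (-1.26), against -2.74 without M202(Sub1) replicate 3. CPD1 lay in a window of 50 tested genes on chromosome 11 in which 14 differed, against a median of 7 over all windows. Of these 14, 5 differed in the same direction on day 0. BU1 (OS06G0226500), a regulator of leaf bending that responds to brassinosteroid, had no count in M202(Sub1) and 2.36, 2.04 and 2.14 CPM in M202, which is at least 3.71-fold lower at a floor of 3 counts a library (adjusted p = 0.000167). These were the 3 called of 12 genes of brassinosteroids and cytokinins, whose median log2 difference was -0.05.

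Of 15 gibberellin genes, 3 were higher and 1 was lower, with a median log2 difference of 0.11. GA20OX2 (OS01G0883800), the semidwarf gene sd1, whose oxidase makes gibberellin precursors, stood at 69.7, 71.5 and 67.9 CPM in the M202(Sub1) libraries and at 38.9, 38 and 38.2 CPM in the M202 libraries (log2 difference 0.86 ± 0.20, adjusted p = 0.00168). GID1 (OS05G0407500), the gibberellin receptor, was also higher (log2 difference 0.56 ± 0.14, adjusted p = 0.00348). GID1 was already called higher on day 0. That call was lost in several alternatives, such as the groups alone (0.53) and without M202(Sub1) replicate 2 of day 0 (0.39). GA2OX9 (OS02G0630300), an enzyme that inactivates gibberellins, was higher on day 1, with 27 counts over the M202(Sub1) libraries and 3 over the M202 libraries. This is a ratio of 13.2 with a counting interval of 4.06 to 68 (adjusted p = 0.00368). KAO, an oxidase of an early step, was lower (log2 difference -0.52 ± 0.15, adjusted p = 0.0111). It was not called without M202(Sub1) replicate 1 (-0.47) or 2 (-0.49) or M202 replicate 2 (-0.46). SLR1 (OS03G0707600), the DELLA protein that represses gibberellin responses, had a log2 difference of -0.07 ± 0.27 (adjusted p = 0.915), and its partner SLRL1 had too few counts to be tested.

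Among 17 abscisic acid genes only ZEP1 (OS04G0448900), the zeaxanthin epoxidase of its synthesis, passed the test (log2 difference 0.60 ± 0.12, adjusted p = 0.000192), and ABA8OX1 (OS02G0703600), which breaks the hormone down, did not (log2 difference 1.31 ± 0.58, adjusted p = 0.132). Among 14 jasmonate genes, the receptor gene COI1A (OS01G0853400) was higher (log2 difference 0.74 ± 0.12, adjusted p = 8.61e-06) and the repressor gene TIFY10B (OS07G0615200) lower (log2 difference -0.48 ± 0.12, adjusted p = 0.00308). The median log2 differences of these lists were 0 and 0.01.

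Dehydration genes, the responses to drought and salt, held 4 higher and 2 lower of 11, with a median log2 difference of -0.28. Of the list's 7 genes of dehydrins and LEA proteins, only 1 had enough counts to be tested. That gene did not pass (log2 difference -1.32). SALT (OS01G0348900), a lectin induced by salt and drought, stood at 86.7, 84.4 and 81.6 CPM in the M202(Sub1) libraries and at 25.8 to 29.2 CPM in the M202 libraries, about 3.09-fold apart (log2 difference 1.63 ± 0.15, adjusted p = 5.39e-12). P5CS1 (OS05G0455500), the enzyme that commits glutamate to proline, stood at 139, 138 and 127 CPM in the M202(Sub1) libraries and at 83.4, 80.8 and 70.1 CPM in the M202 libraries (log2 difference 0.79 ± 0.11, adjusted p = 4.78e-07). NAC5 (OS11G0184900), a NAC transcription factor of stress and leaf ageing, went the other way and was measured at 50.9, 57.8 and 48.1 CPM in M202 but at 4.98, 2.04 and 6.26 CPM in M202(Sub1) (log2 difference -3.54 ± 0.28, adjusted p = 5.32e-14). The M202 libraries of NAC5 were all at least several times above the highest M202(Sub1) library. NAC5 lay in a window of 50 neighbouring tested genes on chromosome 11 in which 18 differed, against a median of 7 over all windows. In that window 5 genes also differed in the same direction on day 0. Of 3 further transcription factors, singled out after their values were seen, DREB1C (log2 difference 2.85 ± 0.72, adjusted p = 0.00363) and SNAC1 (log2 difference 0.66 ± 0.18, adjusted p = 0.00757) were higher. NAC6 was lower (log2 difference -0.46 ± 0.14, adjusted p = 0.0205). It was not called without M202(Sub1) replicate 1 (-0.44) or 2 (-0.45) or M202 replicate 1 (-0.46) or 3 (-0.44).

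Cell wall genes were lower in M202(Sub1) wherever they were called. Of 16 genes, 12 were lower and none higher, 5 of them among 8 expansins and 6 of them the 6 primary wall cellulose synthases, and the list's median log2 difference was -1.18. In elongating leaves of day 1, 12 of the 16 were called too, with a list median of -0.91. The 8 expansins had a median of -1.62 in non-elongating and -2.79 in elongating leaves. Expansins loosen the wall so that it can extend. EXPB11 (OS02G0658800) was measured at 20.4, 20.1 and 21.6 CPM in M202 but at 1.59, 0.815 and 1.47 CPM in M202(Sub1) (log2 difference -3.97 ± 0.42, adjusted p = 2.72e-10). EXPB4 (OS10G0556100) was measured at 17.7, 14.1 and 15.3 CPM in M202 but at 2.59, 1.63 and 2.02 CPM in M202(Sub1) (log2 difference -2.90 ± 0.36, adjusted p = 2.19e-08). EXPB3 (OS10G0555900) was measured at 19.8, 15.3 and 18.8 CPM in M202 but at 4.58, 2.45 and 2.21 CPM in M202(Sub1) (log2 difference -2.54 ± 0.28, adjusted p = 1.12e-09). In all of these beta-expansins the M202(Sub1) libraries stood at a few CPM or less and the lowest M202 library at 14.1 CPM. EXPA2 (OS01G0823100), an alpha-expansin, was measured at 19, 17.8 and 19.6 CPM in M202 but at 7.17, 9.38 and 8.84 CPM in M202(Sub1), a smaller gap (log2 difference -1.15 ± 0.31, adjusted p = 0.00727). The cellulose synthases are more abundant and differed less. CESA5 (OS03G0837100) was measured at 95.2, 105 and 106 CPM in M202 but at 39.5, 46.9 and 45.3 CPM in M202(Sub1) (log2 difference -1.22 ± 0.16, adjusted p = 5.18e-08). CESA1 (OS05G0176100) was measured at 167, 162 and 148 CPM in M202 but at 78.9, 92.1 and 93.1 CPM in M202(Sub1) (log2 difference -0.85 ± 0.12, adjusted p = 7.89e-07). CESA6 (OS07G0252400) had a log2 difference of -1.04 ± 0.16 (adjusted p = 3.1e-06), and the 6 synthases ran from -1.22 to -0.40, each without overlap between the genotypes where values are given here. Close relatives such as EXPB3 and EXPB4, the cellulose synthases, or ADH1 and ADH2, may share reads, which the counting is not known to separate.

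Several genes of chlorophyll loss were lower in M202(Sub1). Of 14 genes of leaf senescence, 5 were lower and 1 higher, with a median log2 difference of -0.38, and of the 6 that act in chlorophyll breakdown 4 were lower and 1 higher, with a median of -1.16. SGR (OS09G0532000), the stay-green protein that takes magnesium from chlorophyll, was measured at 47.5, 62.4 and 65.8 CPM in M202 but at 5.58, 7.34 and 10.3 CPM in M202(Sub1). The lowest M202 library was several times above the highest M202(Sub1) library (log2 difference -2.91 ± 0.29, adjusted p = 8.7e-11). NYC1 (OS01G0227100), a reductase that converts chlorophyll b to a, was measured at 189, 193 and 204 CPM in M202 but at 66, 60.3 and 67.4 CPM in M202(Sub1) without overlap (log2 difference -1.60 ± 0.11, adjusted p = 2.6e-16). NYC3 (OS06G0354700), a hydrolase needed for chlorophyll loss in dark-kept leaves, was measured at 381, 465 and 388 CPM in M202 but at 145, 139 and 161 CPM in M202(Sub1) (log2 difference -1.47 ± 0.17, adjusted p = 2.46e-09). RCCR1 (OS10G0389200), which reduces the red catabolite of chlorophyll, was lower too (log2 difference -0.85 ± 0.23, adjusted p = 0.00608), except without M202 replicate 1 (-0.72), where the call was lost. PAO (OS03G0146400), the oxygenase that opens the ring of pheophorbide, was the higher one and stood at 762, 727 and 726 CPM in the M202(Sub1) libraries and at 482, 479 and 544 CPM in the M202 libraries (log2 difference 0.56 ± 0.11, adjusted p = 0.000191). The NYC1 relative NOL (OS03G0654600) did not pass (log2 difference -0.30 ± 0.14, adjusted p = 0.158). GDH2 (OS04G0543900), a glutamate dehydrogenase that releases ammonium as nitrogen is moved out of leaves, was lower (log2 difference -0.69 ± 0.20, adjusted p = 0.0121). It was not called without M202(Sub1) replicate 3 (-0.60) or M202 replicate 1 (-0.52).

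**Figure D3:**
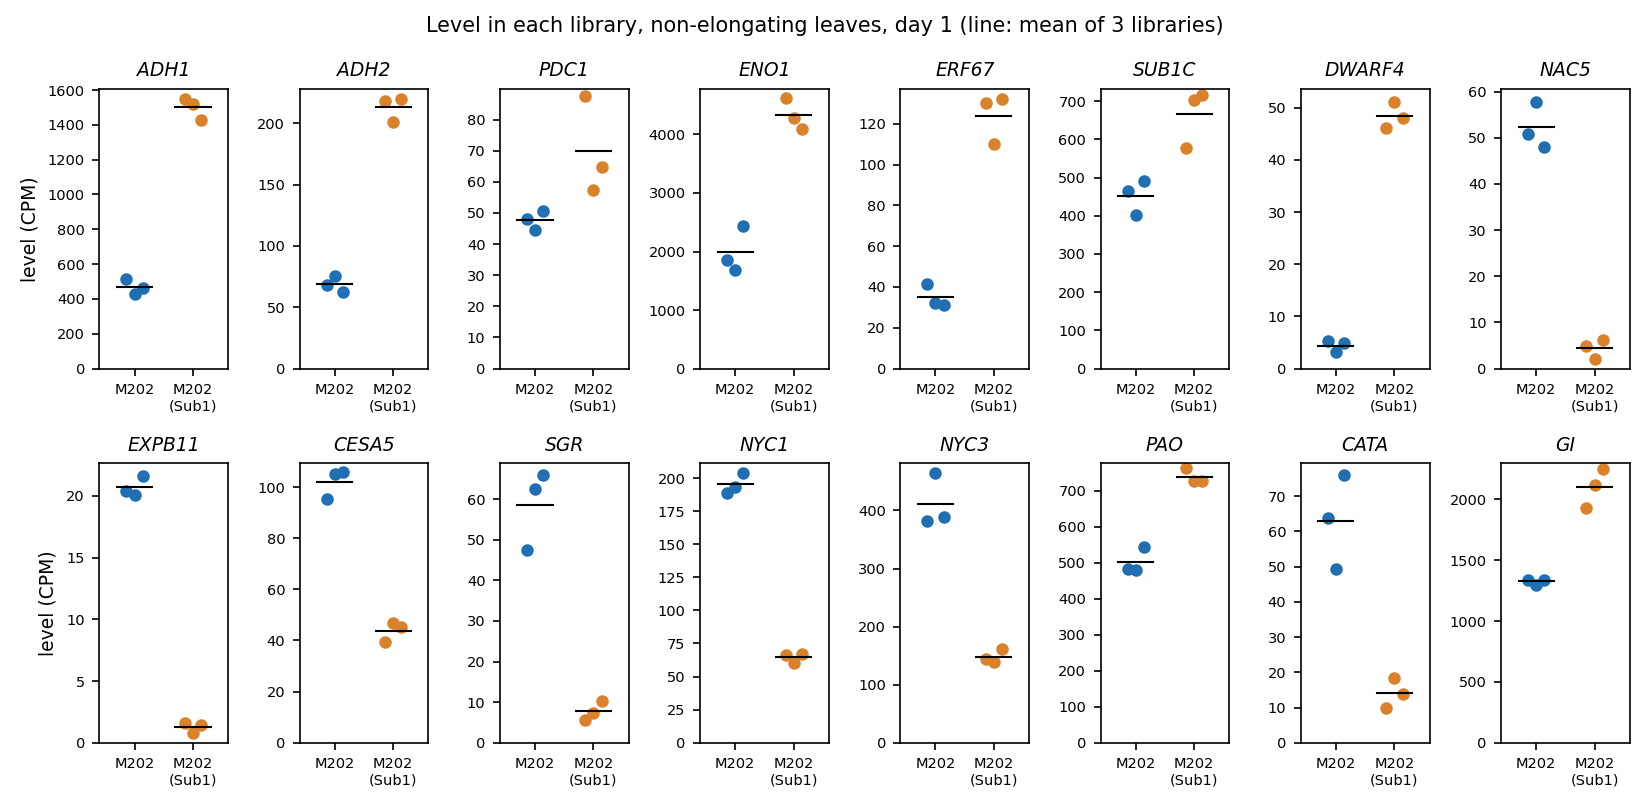
Level in CPM (vertical axes, each from 0) in each of the 6 libraries for 16 genes of fermentation, glycolysis, ethylene response factors, hormones, dehydration, cell wall, chlorophyll loss, reactive oxygen and the clock, with a bar at each genotype's mean. ADH1 stood at 1430 to 1550 CPM in M202(Sub1) against 429 to 514 CPM in M202, and SGR at 5.58 to 10.3 CPM against 47.5 to 65.8 CPM.

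Photosynthesis genes were called at 8.7% (light harvesting), 9.09% (Calvin cycle) and 8.33% (chlorophyll synthesis), against 15% of all genes tested. These shares were not tested against other genes. Of 23 light-harvesting genes 2 were higher and none lower, with a median log2 difference of -0.05. LHCB1_2 (OS09G0346500), an antenna protein of photosystem II, stood at 2510, 3030 and 2500 CPM in the M202(Sub1) libraries and at 1090, 1010 and 839 CPM in the M202 libraries (log2 difference 1.45 ± 0.19, adjusted p = 7.04e-08), but was already higher on day 0 (log2 difference 0.90 ± 0.19, adjusted p = 0.00139). It is the last gene of a window of 50 tested genes on chromosome 9 in which 24 differed, 16 of them in the same direction on day 0. PSAH (OS05G0560000), a subunit of photosystem I, was higher by a small step (log2 difference 0.52 ± 0.18, adjusted p = 0.0373). The call was lost without M202(Sub1) replicate 1 (0.55), 2 (0.54) or 3 (0.46) or M202 replicate 2 (0.49) or 3 (0.47). Of 11 Calvin cycle genes the Rubisco small subunit gene RBCS2 (OS12G0274700) was lower (log2 difference -0.57 ± 0.16, adjusted p = 0.0105), the list's median being -0.05. RBCS2 lay in a window of 50 tested genes on chromosome 12 in which 15 differed, against a median of 7 over all windows. Of these 15, 7 differed in the same direction on day 0. Of 12 genes of chlorophyll synthesis the lower one was PORA (OS04G0678700), the light-dependent reductase of greening seedlings, which was measured at 66.6, 53.5 and 60.7 CPM in M202 but at 24.3, 28.5 and 34.2 CPM in M202(Sub1) (log2 difference -1.05 ± 0.27, adjusted p = 0.00394), against a list median of 0.02.

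Of 16 genes that remove reactive oxygen, 3 were higher and 3 lower, with a median log2 difference of -0.07. CATA (OS02G0115700), a catalase, was measured at 63.8, 49.3 and 76 CPM in M202 but at 9.96, 18.5 and 13.8 CPM in M202(Sub1) (log2 difference -2.16 ± 0.21, adjusted p = 2.51e-11), while the other 2 of the 3 catalase genes did not pass the test. MT2B (OS05G0111300), a metallothionein that scavenges reactive oxygen, was lower (log2 difference -1.12 ± 0.18, adjusted p = 1.03e-05). SODA1 (OS05G0323900), the mitochondrial superoxide dismutase, was higher (log2 difference 0.67 ± 0.12, adjusted p = 2.26e-05), and so was APX7 (OS04G0434800), an ascorbate peroxidase (log2 difference 0.91 ± 0.25, adjusted p = 0.0075). APX7 lost its call without M202 replicate 1 (0.72) or 3 (0.78). Of 11 aquaporins, the water channels, none was higher and 4 were lower, all of them among the 8 of the plasma membrane, with a list median of -0.46. PIP2-6 (OS04G0233400) was lower by the most (log2 difference -1.34 ± 0.22, adjusted p = 1.18e-05), PIP1-1 was lower too (log2 difference -0.69 ± 0.15, adjusted p = 0.000493), as was PIP1-2 (log2 difference -0.72 ± 0.22, adjusted p = 0.0209), except without M202(Sub1) replicate 2 (-0.72) or 3 (-0.60) or M202 replicate 1 (-0.70) or 2 (-0.55). PIP2-1 (OS07G0448800) was lower by the least of the called ones (log2 difference -0.46 ± 0.14, adjusted p = 0.0155). Its call was lost without M202(Sub1) replicate 3 (-0.40) or M202 replicate 3 (-0.40). On day 0 PIP2-1 was called higher instead. That call was lost in several alternatives, such as the groups alone (0.45) and without M202(Sub1) replicate 1 of day 0 (0.34).

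Clock and flowering genes differed in 7 of 8 cases, 6 being higher and 1 lower, with a median log2 difference of 0.37. GI (OS01G0182600), an evening gene of the clock, stood at 1930, 2120 and 2250 CPM in the M202(Sub1) libraries and at 1340, 1300 and 1340 CPM in the M202 libraries (log2 difference 0.67 ± 0.09, adjusted p = 4.01e-07). FKF1 (OS11G0547000), the blue-light receptor that works with it, stood at 59.4, 60.7 and 74.7 CPM in the M202(Sub1) libraries and at 31.2, 28.1 and 28.3 CPM in the M202 libraries (log2 difference 1.15 ± 0.13, adjusted p = 2.31e-09). LHY (OS08G0157600), a morning gene, was the lower one and was measured at 735, 638 and 787 CPM in M202 but at 494, 461 and 534 CPM in M202(Sub1) (log2 difference -0.54 ± 0.13, adjusted p = 0.00168). LHY lay in a window of 50 tested genes on chromosome 8 in which 15 differed, against a median of 7 over all windows. Of these 15, 1 differed in the same direction on day 0. Of 5 pseudo-response regulators, which repress morning genes, 4 were higher, with a median of 0.35. No library of one genotype overlapped those of the other for GI, FKF1 or LHY. The labels do not give the hour of harvest, so a part of sampling time in these values was not tested.

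Of 5 heat-shock genes HSP26.7 (OS03G0245800), a small chloroplast chaperone, passed the test and stood at 9.96, 18.8 and 13.6 CPM in M202(Sub1), with no count in the 3 M202 libraries, which is at least 35.2-fold higher at a floor of 3 counts a library (adjusted p = 3.4e-09). HSFA2D (OS03G0161900), a heat-shock factor, had a log2 difference of -0.17 ± 0.13 (adjusted p = 0.437). Of 19 defence genes PAL1 (OS02G0627100), the entry enzyme of phenylpropanoids, was lower (log2 difference -0.76 ± 0.25, adjusted p = 0.0286). Its call was lost without M202(Sub1) replicate 2 (-0.65) or 3 (-0.81) and without M202 replicate 1 (-0.77), 2 (-0.76) or 3 (-0.77). It was also lost with halved counts (-0.75). The defence list's median was -0.38, or -0.20 with genes at 0 in a group set to their bound, and none of its 10 WRKY genes passed, WRKY28 (OS06G0649000) having a log2 difference of 0.04 ± 0.24 (adjusted p = 0.948). None of 3 cell-cycle genes passed, with a median of -0.23, or 0 at the bound.

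Among genes with no name in the sources used here, the widest differences were between presence and absence of counts. OS08G0208400 stood at 848, 905 and 1010 CPM in M202(Sub1) and its neighbour in numbering OS08G0208300 at 48, 49.1 and 60 CPM, while M202 had no count of either. In the other direction, OS09G0355400 stood at 363, 373 and 396 CPM and OS12G0254400 at 88.6, 102 and 94.9 CPM in M202 and had no count in M202(Sub1). On day 0, OS08G0208400 already averaged 26.6 CPM in M202(Sub1) and 0 CPM in M202. OS09G0355400 averaged 0.102 CPM in M202(Sub1) against 169 CPM in M202 on that day, and OS12G0254400 0.0573 CPM against 117 CPM. Each of these day 0 differences passed the test, while OS08G0208300 was at 0 CPM in both genotypes. All of these genes also differed in the same direction on days 3 and 6 and in elongating leaves of day 1. The share of tested genes that differed was 23.2% on chromosome 12, 18.8% on chromosome 11, 18.7% on chromosome 9 and 16.6% on chromosome 6, against 12.2% to 14.7% on the others. In 423 windows of 50 neighbouring tested genes, the median number called was 7. The most was 28, in a window of chromosome 9 from OS09G0346600 to OS09G0363700, where 18 also differed in the same direction on day 0, and equally in one of chromosome 12 from OS12G0186600 to OS12G0205633, where 17 did.

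Before submergence the genotypes differed less. On day 0, 588 genes (2.74%) passed the test, of which 257 (1.2%) were higher and 331 (1.54%) lower in M202(Sub1), and 386 passed with the 2 groups fitted alone. Of these, 316 also differed in the same direction on day 1, which is 53.7% of the day 0 genes and 9.8% of the day 1 genes. The change in the genotype difference from day 0 to day 1 was itself tested, and 1173 genes (5.47%) passed, 409 (1.91%) with a larger and 764 (3.56%) with a smaller value of M202(Sub1) minus M202 on day 1. Of the 3226 genes called on day 1, 966 (29.9%) passed this test, which uses the same day 1 libraries, so most day 1 differences were not shown to have changed since day 0.

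ADH1 (OS11G0210300) was rare in both genotypes before submergence. It averaged 20.8 ± 3.72 CPM in M202 against 20.6 ± 2.86 CPM in M202(Sub1) on day 0 (SD, n = 3) and 468 ± 43.1 CPM and 1500 ± 59 CPM on day 1, and its genotype difference grew by a log2 value of 1.70 ± 0.22 (adjusted p = 5.71e-07). DWARF4 stood at 15.1 ± 6.82 CPM in M202 against 17.2 ± 3.97 CPM in M202(Sub1) on day 0 and at 4.39 ± 1.12 CPM and 48.5 ± 2.5 CPM on day 1, the M202 mean being below its day 0 mean and the M202(Sub1) mean above it. The change of its genotype difference was 3.24 ± 0.37 (adjusted p = 2.2e-08). SALT, P5CS1 and FKF1 changed likewise, by 1.82 ± 0.24, 1.00 ± 0.16 and 1.36 ± 0.19.

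SGR averaged 107 ± 21.7 CPM in M202 against 174 ± 32.4 CPM in M202(Sub1) on day 0, a log2 difference of 0.70 ± 0.23 (adjusted p = 0.0924) that passed the test only with no filter on low counts. On day 1 it averaged 58.6 ± 9.73 CPM and 7.74 ± 2.39 CPM, below day 0 in both genotypes, and the genotype difference changed by -3.61 ± 0.37 (adjusted p = 1.38e-09). NYC1, at -0.12 on day 0, changed by -1.48 ± 0.15 (adjusted p = 5.73e-10). The beta-expansins EXPB3 and EXPB11 changed by -2.49 ± 0.36 and -3.90 ± 0.51, and NAC5 by -3.02 ± 0.35. SUB1B was lower on day 0 (-1.31 ± 0.20, adjusted p = 5.67e-06) and changed by 1.73 ± 0.25 (adjusted p = 5.18e-06). SUB1C was also lower on day 0 (-1.36 ± 0.30, adjusted p = 0.00364). Without M202 replicate 1 of day 0 (-1.08) the SUB1C call of that day was lost. SNAC1 was already higher on day 0 (1.01 ± 0.21, adjusted p = 0.00141).

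**Figure D4:**
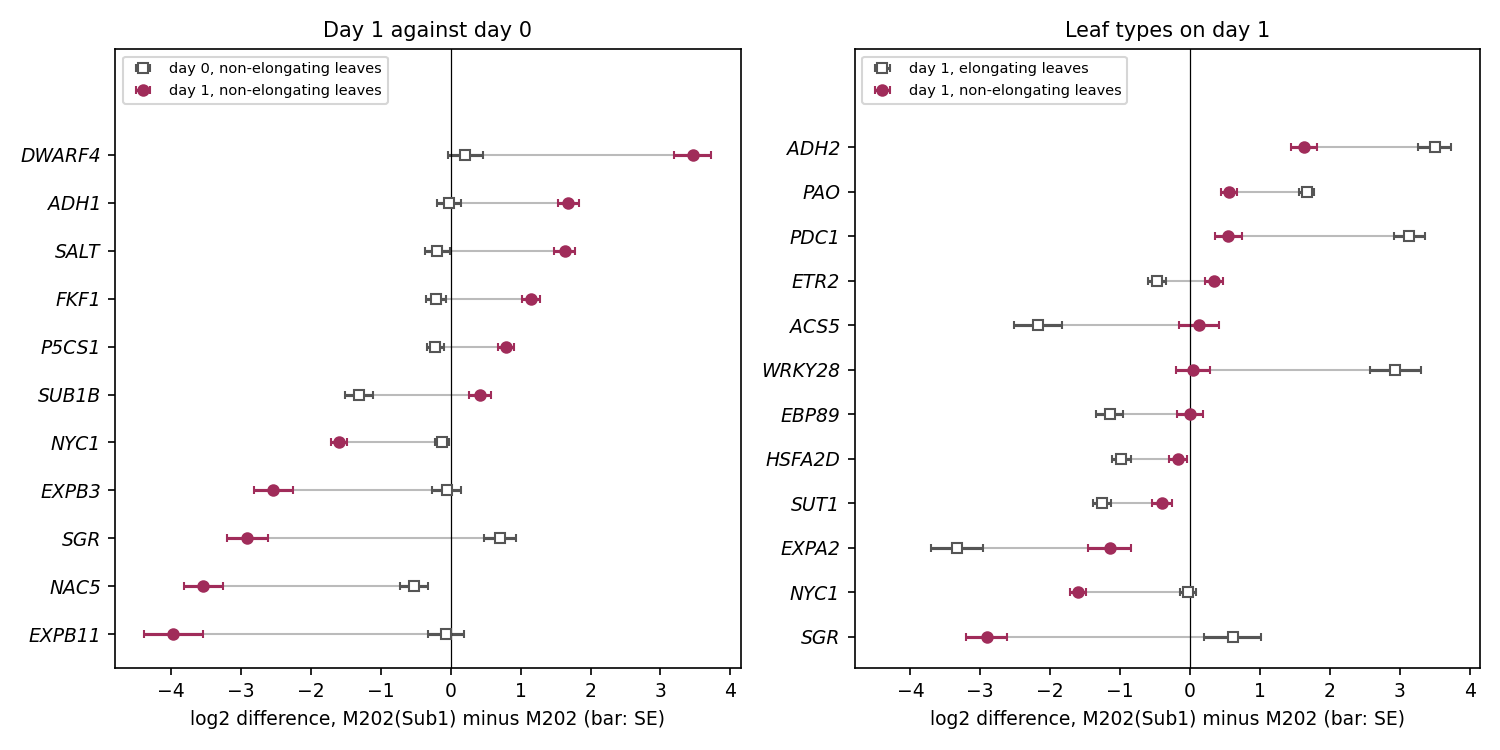
Log2 genotype differences (M202(Sub1) minus M202, horizontal axes, with standard errors) of the named genes on day 1 beside day 0 in non-elongating leaves, and on day 1 in non-elongating beside elongating leaves. SGR moves from 0.70 on day 0 to -2.91 on day 1, and stands at -2.91 in non-elongating against 0.61 in elongating leaves.

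Later in submergence the genotypes went on to differ. On day 3, 2963 genes (13.8%) passed the test, 1274 (5.94%) higher and 1689 (7.87%) lower, and 1463 of them differed as on day 1, which is 49.4% of the day 3 and 45.4% of the day 1 genes. On day 6, 3284 genes (15.3%) passed, 1539 (7.17%) higher and 1745 (8.13%) lower, and 1205 were shared in direction with day 1, which is 36.7% of the day 6 and 37.4% of the day 1 genes. With the 2 day 6 groups fitted alone, 1336 genes passed. ADH1 had log2 differences of 1.68 ± 0.15 (adjusted p = 1.49e-12) on day 3 and 2.59 ± 0.15 (adjusted p = 3.98e-18) on day 6. ERF67 had 1.96 ± 0.22 (adjusted p = 9.82e-10) and 2.78 ± 0.29 (adjusted p = 2.29e-10), with mean levels of 2.17 ± 0.704 CPM in M202 against 15.3 ± 5.62 CPM in M202(Sub1) on day 6. In EXPB11, which had -1.35 ± 0.26 (adjusted p = 0.000153) on day 3, the genotypes stood at 35.6 ± 7.18 CPM (M202) and 34.3 ± 5.8 CPM (M202(Sub1)) on day 6, a log2 difference of -0.05 ± 0.26 (adjusted p = 0.933) whose sign turned without M202(Sub1) replicate 1 (0.06) or M202 replicate 2 (0.10) of that day. SGR had -2.69 ± 0.26 (adjusted p = 1.59e-11) and -2.96 ± 0.25 (adjusted p = 4.72e-13), and DWARF4 3.38 ± 0.32 (adjusted p = 1.94e-11) and 2.26 ± 0.30 (adjusted p = 1.47e-07). Whether these later differences changed from day 1 was not tested.

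**Figure D5:**
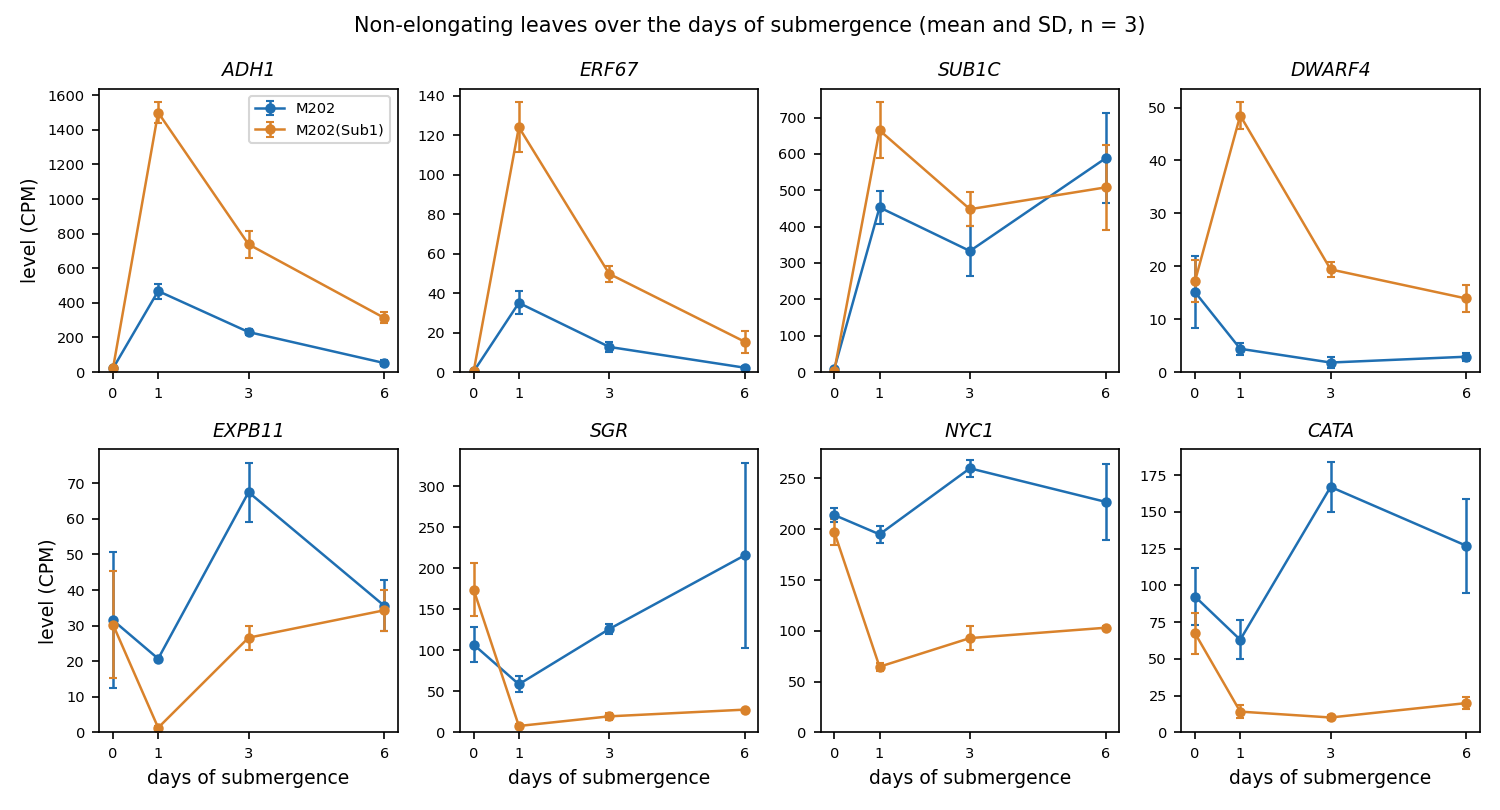
Mean level in CPM (vertical axes, with SD as error bars, n = 3) of 8 genes at 0, 1, 3 and 6 days of submergence (horizontal axes) in non-elongating leaves of the 2 genotypes. The day 1 gap between the genotypes is seen in each panel, with ADH1 and DWARF4 above in M202(Sub1) and SGR, NYC1, EXPB11 and CATA above in M202.

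In elongating leaves of the same day, 4358 genes (20.3%) differed between the genotypes, with M202(Sub1) above M202 in 1880 (8.76%) and below it in 2478 (11.6%). Of these, 1698 differed in the same direction in non-elongating leaves, which is 39% of the elongating and 52.6% of the non-elongating calls. The difference of the genotype effects between the tissues, which shares libraries with both comparisons, passed the test for 565 genes (2.63%), 277 (1.29%) with a larger and 288 (1.34%) with a smaller value in non-elongating leaves. The split moved with the processing: 49% of these were larger in the design given, 61.9% with halved counts, 59.4% by DESeq2 and 59.3% with the 4 groups fitted alone. The count was 973 by DESeq2 and 1254 with the 4 groups alone. It fell to 343 or 355 without M202(Sub1) replicate 2 or 3 and to 321 without M202 replicate 2 of non-elongating leaves, and to 334, 344 or 363 without M202 replicate 1, 2 or 3 of elongating leaves.

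Some genes of chlorophyll loss and of fermentation were among those whose genotype difference differed between the tissues. SGR had a log2 genotype difference of 0.61 ± 0.41 in elongating leaves, -3.51 ± 0.51 (adjusted p = 2.86e-05) from that in non-elongating leaves. NYC1 had -0.03 ± 0.11 there, a difference between the tissues of -1.56 ± 0.15 (adjusted p = 2.11e-09). PAO was higher in M202(Sub1) in both, by 0.56 and 1.67, and less so in non-elongating leaves (-1.11 ± 0.16, adjusted p = 2.05e-05). ADH2 was higher by 1.63 ± 0.19 in non-elongating and 3.50 ± 0.24 in elongating leaves, a difference of -1.86 ± 0.31 (adjusted p = 0.000199). PDC1 was higher by 0.55 ± 0.19 against 3.14 ± 0.22 in elongating leaves (-2.59 ± 0.29, adjusted p = 1.68e-07). ADH1 was higher by 1.68 ± 0.15 in non-elongating and 1.42 ± 0.15 in elongating leaves. Its difference between the tissues did not pass the test (0.26 ± 0.20, adjusted p = 0.585).

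EXPA2 was lower in M202(Sub1) in both tissues, by less in non-elongating leaves (-1.15 ± 0.31) than in elongating ones (-3.33 ± 0.37), with a difference of 2.18 ± 0.50 (adjusted p = 0.00924). In elongating leaves ACS5 had a genotype difference of -2.17 ± 0.34 (adjusted p = 5.2e-06) and WRKY28 one of 2.94 ± 0.36 (adjusted p = 1.42e-08), against 0.13 and 0.04 in non-elongating leaves, and the tissues differed by 2.29 ± 0.44 (adjusted p = 0.00227) and -2.90 ± 0.44 (adjusted p = 5.99e-05). EBP89, HSFA2D, SUT1 and ETR2 had elongating-leaf values of -1.15, -0.98, -1.26 and -0.47, each below that of non-elongating leaves, by 1.15 ± 0.27, 0.81 ± 0.18, 0.86 ± 0.19 and 0.83 ± 0.18.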

How the data were processed

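RNA of rice leaves was sequenced as paired-end libraries. Reads were processed with STAR, featureCounts and DESeq2 against IRGSP-1.0, per the submitters' processing notes; versions and the handling of strand and shared reads are not given in the sources used here. The authors deposited 1 table of whole-number counts per gene for all 48 libraries, and no row without a gene name and no value column outside the labelled libraries was found. Between 62.3% and 73.8% of the counts in a library were even, a sign that read pairs mostly gave 2 counts, and halved counts were tried as an alternative.

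Genes were kept by filterByExpr (minimum count 10, minimum total 15), scaled by TMM and fitted with edgeR 4.0.16 (R 4.3.3, limma 3.58.1) in 1 quasi-likelihood model of the 16 groups, with contrasts for each comparison. P-values were adjusted by Benjamini-Hochberg over 21453 genes, with a threshold of 0.05. Standard errors are the log2 difference over the square root of F. The biological coefficient of variation was 0.152. Precision is set by 3 libraries a group and by their depth, and counting intervals cover counting error only.

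The comparison, the lists and their members were chosen with earlier results of these data known. Named genes were members marked as central of each list, up to 15 per direction with the largest differences among called members of at least 10 CPM, up to 3 called per list by smallest adjusted p, 2 unnamed genes per direction, and up to 6 per direction by smallest p of the change from day 0. The like rule for the difference between tissues was added after the files were seen. Of 364 list entries, 230 had their symbol checked against the RefSeq gene table of another assembly, 6 matched by chromosome only, 8 lay on another chromosome and were dropped, and 120 symbols, among them SUB1B, SUB1C, ERF66 and ERF67, were not in that table and rest on general knowledge, leaving 356. A named gene is not reported here.

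Same-numbered libraries of the genotypes deviated together weakly on day 0 (correlations 0.137, 0.105 and 0.101). They did not on day 1 in non-elongating (-0.024, -0.028 and -0.011) or elongating leaves (-0.026, -0.035 and 0.017). The labels do not say that libraries are paired by number, these weak correlations do not settle it, and the main fit used no pairing. Alternatives were upper-quartile and RLE scaling, no filter, halved counts, DESeq2 1.42.0, the compared groups alone, a replicate block, leaving out each library and, chosen after seeing the data, thinning to equal depth.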

Additional observations from a re-analysis of the deposited data

Results flagged for a closer look

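The genotype difference of some genes itself differed between day 0 and day 1 in non-elongating leaves: 1173 genes passed that test (edgeR, adjusted p under 0.05). Some further named genes passed it too, and only those of the list members with the smallest p in each direction are given here, as log2 changes of M202(Sub1) minus M202. Larger on day 1 were ADH1 (1.70), SALT (1.82), P5CS1 (1.00), DWARF4 (3.24), FKF1 (1.36) and SUB1B (1.73). Smaller were NAC5 (-3.02), EXPB3 (-2.49), EXPB11 (-3.90), SGR (-3.61) and NYC1 (-1.48). SUB1B is the gene whose shared reads with its relatives at the Sub1 locus are not separated.

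On day 1, 565 genes differed in their genotype difference between non-elongating and elongating leaves. Of the list members that passed, those with the smallest p in each direction are given. Values larger in non-elongating leaves were those of ACS5 (2.29), EXPA2 (2.18), EBP89 (1.15), SUT1 (0.86), ETR2 (0.83) and HSFA2D (0.81). Values smaller there were those of SGR (-3.51), WRKY28 (-2.90), PDC1 (-2.59), ADH2 (-1.86), NYC1 (-1.56) and PAO (-1.11).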

How the results depend on the processing

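The count of genes that differed on day 1 in non-elongating leaves, 3226, ran from 2390 to 2666 leaving out 1 library and from 3034 to 3877 under the other alternatives, 3067 with libraries thinned to equal depth, a setting chosen after seeing the data. On day 0 the count was 588, 386 with the 2 groups fitted alone and 408 to 566 leaving out 1 library. In elongating leaves 4358 became 3407 to 3796, for the change from day 0 to day 1, 1173 became 890 to 1250, on day 3 2963 became 2171 to 2609, and on day 6 3284 became 2345 to 3610, or 1336 with the 2 groups fitted alone. The count for the difference between the tissues, 565, was 973 by DESeq2, 1254 with the 4 groups alone and 321 to 445 leaving out 1 library. With a replicate block, day 1 gave 3207 calls, day 0 582, elongating leaves 4308, the change from day 0 1134 and the difference between tissues 561. Under this block, MYBS1 lost its day 1 call (0.56) and GID1 its day 0 call (0.54). Of 72 called named genes, 51 kept their call under every alternative run, and the 11 changes from day 0 and 12 differences between tissues of named genes kept theirs too. The sign of the genotype difference turned in genes that did not pass the test: ACS5 (-0.12 without M202 replicate 2, the range leaving out 1 library being -0.12 to 0.57), SLR1 (0.29 without M202 replicate 3, range -0.29 to 0.29) and WRKY28 (-0.01 without M202(Sub1) replicate 2 or M202 replicate 1, -0.02 without M202 replicate 3, range -0.02 to 0.15). On day 6 that of EXPB11 (-0.05) was 0.06 without M202(Sub1) replicate 1 and 0.10 without M202 replicate 2 (range -0.20 to 0.10). In elongating leaves that of NYC1 (-0.03) was 0.03 without M202(Sub1) replicate 3 and 0.02 without M202 replicate 2 (range -0.12 to 0.03). Why these values moved was not tested. Depth limits AMY3D, CIN2, GA2OX9, ACS2 and PDC2, whose groups hold few counts.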
